A study of Macaca mulatta with 95 samples.

Results

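At the early blastocyst, when the rhesus macaque embryo holds a small cavity, 6 outer and 5 inner cells were compared across 16049 genes. The members are the early blastocyst cells whose titles begin with the letter A, 11 of the 95 single cells of the series. They were chosen by title and position alone. The other 5 inner early blastocyst cells carry the letters G and H, which no outer cell of the stage carries, and were left out of the comparison. Per the labels, the embryos grew from fertilised oocytes of hormone-stimulated Macaca mulatta females in HECM-9 medium with serum to about day 5, with no other treatment. Both groups share that culture, the removal of the zona pellucida and the trypsin step. A fluorescent membrane dye was given to whole embryos, so that a dyed cell was called outer and an undyed cell inner. The label therefore records where a cell lay, not which lineage it belonged to. The labels give no genotype or age of the females, and name no animal, embryo or culture. Cells are not replicates, so each group counts as 1 sample, and no p-value or standard error is given. Position cannot be told apart from the embryo a cell came from, and each SD is the spread from cell to cell.

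In the mammalian blastocyst the outer cells form the trophectoderm, the epithelium that pumps fluid into the cavity and later builds the placenta. The inner cells give rise to the epiblast, from which the body forms, and to the hypoblast, the first endoderm layer. In the mouse, outer cells build an apical domain that holds back the Hippo kinases, so that YAP1 and TEAD4 can switch on trophectoderm genes such as CDX2 and GATA3. Nodal ligands and FGF4 are signals of the inner cells in that species.

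Levels are RPKM, reads per kilobase of gene and megaread, and differences are those of the mean log2(RPKM + 1), outer minus inner. Genes whose mean reached 5 RPKM in at least 1 of the groups were taken as measured, 5350 in all. Of these, 1060 did so in the outer cells alone and 1166 in the inner cells alone. A difference of 1 log2 unit or more, a factor of 2, was needed to call a measured gene. By that rule 1403 genes (26.2% of those measured) stood higher and 1508 (28.2%) lower in outer cells, beside a median difference of -0.05 over all measured genes. A list of housekeeping genes gave 4 higher and 3 lower of 17 measured, so a call of this size was also frequent among genes used by every cell. The recovered depth was 5.70 to 7.59 megareads in outer cells and 1.52 to 6.97 megareads in inner cells, where the cell A-03 was the shallowest. Between 2358 and 5250 genes reached 1 RPKM in an outer cell and between 2884 and 4004 in an inner cell.

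Outer cells A-02 and A-05 stood apart as a pair. For 27 genes, outer A-02 held at least 100 RPKM and the 9 cells other than A-05 at most 5% of its value. Outer A-05 held a median of 15.9% of the outer A-02 value for these genes (interquartile range 14.9% to 17.5%), and at least 12.0% for each of the 27. Among 72 other ordered pairs of cells with 10 or more such genes, the highest median was 4.47%. The cause of this pairing was not tested, and named genes whose call or direction rests on outer A-05 are given with and without it. For PRDM14, FGF4, KLF17, LATS2 and CTSE below, outer A-05 also held a value near such a share of outer A-02. It is not counted as a further cell with these genes. More widely, when 1 cell held at least 100 RPKM of a gene and the 10 others under 5 RPKM, traces above 0 were found in 49.6% of the other outer cells for 50 genes high in an outer cell. In the inner cells the same genes were above 0 in 30.4%. For the 95 genes high in 1 inner cell the shares were 52.6% within the position and 33.2% across it. A value of a few RPKM or less is for this reason not read as expression of its own.

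**Figure D1:**
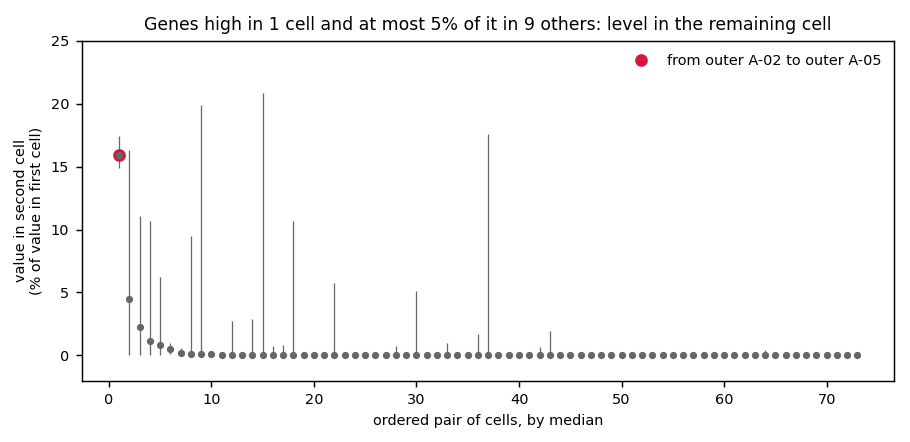
Each point is 1 ordered pair of the 11 cells with 10 or more genes at 100 RPKM or more in the first cell and at most 5% of that in the 9 others, sorted by the median share (% of the first cell's value, y axis) held by the second cell, with vertical lines for the interquartile range. The pair from outer A-02 to outer A-05, at 15.9%, lies above the highest of the others at 4.47%.

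Transcription factors of the trophectoderm stood higher in outer cells, but in different outer cells for different factors. Of 9 measured factors 6 were called higher and 0 lower, with a median difference of 1.42 log2 units, against 26.2% higher and 28.2% lower over all measured genes. Of the 9 factors 3 were measured by their outer mean alone and 0 by their inner mean alone, which by construction favours higher calls. Over all 5350 measured genes these counts were 1060 and 1166. Without outer A-05, 4 of 9 were higher and 0 lower, and the median was 0.98. With the inner cells of letters G and H added, 3 of 9 were higher and 1 lower and the median was 0.13. Those inner cells alone gave 3 of 11 higher, 4 lower and a median of -0.44. GATA3, a GATA factor of the trophoblast, ran from 0.542 to 418 RPKM with a median of 214 in outer cells. The inner cells A-03, A-05, A-07, A-08 and A-10, the order used throughout, held 0.545, 0.251, 0.0525, 0.293 and 53.6 RPKM. Outer A-02, A-05, A-08 and A-10 were above every inner cell, whereas outer A-06 at 0.542 and A-09 at 3.45 RPKM lay below inner A-10. The difference was 4.42 log2 units and 3.96 without outer A-05. GATA2, its close relative, ran from 0.181 to 193 RPKM with a median of 19.4 in outer cells and was 0.431, 0.179, 0.224, 0.204 and 0.362 RPKM in inner cells, a difference of 2.92 and 2.49 without outer A-05. It was carried by outer A-08 at 193, A-05 at 42.2 and A-10 at 38.2 RPKM, and outer A-02, high in GATA3, held 0.181 RPKM.

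CDX2, a caudal homeobox factor that marks the mouse trophectoderm, was not called. It reached 84.3 RPKM in outer A-05 and 19.3 in outer A-08, and also 41.5 in inner A-10, the inner cell with the most GATA3. The other 8 cells held between 0 and 0.422 RPKM, and the difference was 0.86, or -0.02 without outer A-05. TFAP2C, an AP-2 factor, stood at 94.8 RPKM in outer A-10 and 11.1 in outer A-08 and at no more than 1.56 in the other 9 cells. Its difference of 1.47 was 0.52 without outer A-10. HAND1, a factor of placental trophoblast, rested on outer A-05 at 56.2 RPKM, since its difference of 1.42 was 0.55 without that cell. These factors were thus each found in 1 to 4 of the outer cells, and outer A-06 and A-09 held little of any of them.

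TEAD4, the DNA-binding partner of YAP1, was present in every cell. Outer cells ran from 181 to 643 RPKM with a median of 408, and inner cells held 117, 451, 148, 35.4 and 459 RPKM. The groups overlapped, with inner A-05 and A-10 inside the outer range, and the difference of 1.14 was 0.98 without outer A-05 and 0.59 without inner A-08. KLF6, a zinc finger factor, was at 49.8, 51.2 and 37.1 RPKM in outer A-05, A-06 and A-08 and at 55.6 in inner A-07, with a difference of 1.71 that was 1.17 without outer A-05 and 2.86 without inner A-07. ELF3, an epithelial ETS factor, and KLF5, a factor of trophectoderm and pluripotent cells, were not called, with differences of 0.43 and -0.32, or 0.24 and -0.04 without outer A-05. Among the 18 factors of the list found in the table, EOMES, a T-box factor of mouse trophectoderm, was at 0 in all 11 cells, and the remaining 8 had group means under 5 RPKM.

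The keratin KRT18 separated the groups, whereas KRT8 did not. KRT18, a keratin of simple epithelia, ran from 5432 to 17299 RPKM with a median of 10977 in outer cells, and the inner cells held 2624, 4543, 879, 1768 and 1152 RPKM. Every outer cell was above every inner cell, the lowest being outer A-09 and the highest inner cell A-05. The means were 11041 RPKM (SD 3837) in outer and 2193 RPKM (SD 1475) in inner cells, and the difference was 2.50 with and without outer A-05. KRT8, its filament partner, ran from 5258 to 12138 RPKM with a median of 7518 in outer cells and was 5469.6, 6305, 1157, 4999 and 5454 RPKM in inner cells, a difference of 0.90, under the threshold. Inner A-03, A-05 and A-10 lay within the outer range for KRT8. Reads of both keratins may be shared with near-identical copies elsewhere in the genome, depending on how the authors counted them, so their levels are uncertain to that extent.

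The other keratins did not follow this order. KRT19, also of simple epithelia, was 311, 2868, 1.53, 932 and 2007 RPKM in inner cells against 1.87 to 879 RPKM with a median of 333 in outer cells, a difference of -1.35. It was nearly absent from outer A-06 and inner A-07, and the difference was -0.25 without the former and -3.11 without the latter. KRT7, a keratin of later trophoblast, reached 255 RPKM in inner A-05 and at most 0.727 in the other 10 cells, so its difference of -1.77 was -0.22 without inner A-05. Over the 22 measured keratin and epithelial cytoskeleton genes, 3 were higher and 3 lower, fewer than the 26.2% and 28.2% of all measured genes. S100A16, a calcium-binding protein, was the member of largest difference at 2.95 (2.35 without outer A-05), with 428, 158 and 64.9 RPKM in outer A-08, A-05 and A-10 and 20.7 in inner A-10.

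Surface and secreted trophectoderm genes were patchy. PTGES, the prostaglandin E synthase, was found in outer A-08 at 39 RPKM, and its difference of 1.10 was 0.26 without that cell. PGF, placental growth factor, was at 300.0 and 28 RPKM in outer A-10 and A-08 and at 194 in inner A-07, with a difference of 0.71 that was 1.08 without outer A-05. DAB2, an adaptor for endocytosis of surface receptors, was measured in both groups, at 0.331 to 57.9 RPKM with a median of 16.7 in outer and 9.52, 37.3, 25.6, 9.02 and 14.2 RPKM in inner cells, a difference of -0.76, or -1.26 without outer A-05. PGF and DAB2 were thus below the threshold with all 11 cells and past it, in opposite directions, without outer A-05.

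The whole list of trophectoderm markers shares 5 members with the factors. Of its 14 measured genes 8 were called higher and 2 lower, beside 26.2% and 28.2% over all measured genes. Their median difference was 1.26 log2 units. The outer mean alone made 5 of the 14 measured and the inner mean alone 1, which by construction favours higher calls. Without the shallowest outer and inner cell, 6 of 13 markers passed the threshold upward and 3 downward. Their median was then 0.98. Leaving out any 1 of the 11 cells gave 7 to 11 higher, 0 to 3 lower and a median between 1.05 and 1.49, and without outer A-05 8 of 13 were higher and 3 lower. Counted by cell, 12, 12 and 10 of the 20 markers in the table reached 5 RPKM in outer A-05, A-08 and A-10. In outer A-02, A-06 and A-09 the counts were 6, 3 and 4, inside or below the inner range of 4 to 7. The hormone subunit gene CGA was at 0 in all 11 cells. Counts above the inner range were thus found in 3 of the 6 outer cells, while KRT18 was above the inner range in all 6.

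Epiblast markers did not sort the cells by position. Of 17 measured markers 4 were higher and 5 lower in outer cells, close to the 26.2% and 28.2% of all measured genes, with a median difference of -0.11. Leaving out 1 cell at a time moved that median between -0.75 and 0.53. POU5F1, the core pluripotency factor, was high in every cell, at 1523 to 5745 RPKM with a median of 3055 in outer and 4394, 2614, 2311, 3447 and 3553 RPKM in inner cells, a difference of -0.11. NANOG, another core factor, ran from 1.32 to 292 RPKM with a median of 36.7 in outer cells and was 334, 2.77, 40.8, 1.06 and 76.9 RPKM in inner cells. Its highest cells were inner A-03 and outer A-02, and the difference was 0.14, or -0.08 without outer A-05.

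Among the measured epiblast markers, the Nodal ligand had the largest difference toward the inner cells. NODAL was at 0 in all 6 outer cells and stood at 3.93, 91.6, 0, 0.0248 and 77.4 RPKM in the inner cells, so that inner A-05 and A-10 carried it and inner A-07 also had 0. The difference was -3.03 log2 units. GDF3, a related ligand, was 35.1, 0, 0, 1.08 and 15.2 RPKM in inner cells and reached 7.22 RPKM in outer A-02, with a difference of -1.36 that was -0.58 without inner A-03 and -0.87 without inner A-10. LEFTY1, a Nodal antagonist and target, was 261, 0.0398, 0.05, 0.0743 and 63.3 RPKM in inner cells but also 417 RPKM in outer A-09, and its difference of -1.33 ranged from -2.77 without outer A-09 to -0.04 without inner A-03. TDGF1, the Nodal coreceptor, had the other sign at 1.32, with 69.4 RPKM in outer A-02, 24.6 in A-08 and 33.9 in inner A-03. It was 1.13 without outer A-05 and 0.60 without outer A-02. FOXH1, the nuclear partner of the pathway's SMAD proteins, was higher in outer cells at 2.30, with 83.2 to 355 RPKM with a median of 208 in outer cells and 69.7, 159, 26.7, 2.76 and 51.4 RPKM in inner cells, and the difference was 1.48 without inner A-08. Of the 8 measured genes of the pathway 2 were higher and 4 lower, and without outer A-05 the counts were 3 and 3. The shares over all measured genes were 26.2% and 28.2%.

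PRDM14 and FGF4 were both found in outer A-02 and in inner A-03 and A-10, and PRDM14 in inner A-05 as well. Outer A-05 held both near the share of the outer A-02 value noted for this pair. Whether it expressed them itself was not tested. PRDM14, a factor of pluripotent and germ cells, was 127, 87.4, 0.0374, 0.0556 and 45 RPKM in inner cells, and 117 and 21.3 RPKM in outer A-02 and A-05, with at most 0.288 in the other outer cells. Its difference was -1.85, or -2.36 without outer A-05 and -1.06 without inner A-03. FGF4, the growth factor of inner cells in the mouse, was 635 RPKM in outer A-02, 93.8 in outer A-05, 548 in inner A-03 and 76.9 in inner A-10, and at most 2.83 elsewhere, a difference of -0.27. That difference was -0.91 without outer A-05, -1.46 without outer A-02 and 1.10 without inner A-03, so its direction rested on single cells. SOX2, the partner of POU5F1, reached 32.1 RPKM in inner A-03 and 9.72 in inner A-10, against at most 3.54 in an outer cell. Its difference of -1.30 was -0.49 without inner A-03. UTF1, a chromatin factor of pluripotent cells, was not called at -0.63, with its highest value, 76.1 RPKM, in outer A-09.

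SALL4, KLF17, TBX3 and CD24 stood higher in outer cells. SALL4, a zinc finger factor, was 107, 22.5, 42.7 and 20.9 RPKM in outer A-02, A-05, A-06 and A-08, and between 0 and 0.121 RPKM in the other 7 cells. The outer A-05 value was a somewhat larger share of the outer A-02 value than the median noted for this pair. Whether outer A-05 expressed SALL4 itself was not tested. The SALL4 difference was 3.53, and 3.34 without outer A-05. The groups did not overlap, but outer A-09 and A-10 lay at trace level, just above the inner cells. KLF17, a factor of human epiblast, was found in outer A-02 at 74.3 RPKM. Outer A-05 held 9.39 RPKM, near the share of the outer A-02 value noted for this pair. The KLF17 difference of 1.58 was 0.67 without outer A-02 and 1.24 without outer A-05. TBX3, a T-box factor tied to naive pluripotency in the mouse, ran from 1.34 to 336 RPKM with a median of 128 in outer cells and was 0.293, 14.8, 23.9, 44.6 and 57.4 RPKM in inner cells, a difference of 2.21, 1.78 without outer A-05 and 1.28 without inner A-03. CD24, a surface glycoprotein, ran from 31.6 to 796 RPKM with a median of 546 in outer cells and was 2.19, 1.67, 6.34, 440.3 and 17.4 RPKM in inner cells, so that all outer cells were above the inner cells other than A-08. Its difference was 4.36, and 4.10 without outer A-05. Of 15 measured naive pluripotency genes 5 were higher and 3 lower, against 26.2% and 28.2% of all measured genes, and leaving out 1 cell gave 3 to 8 higher and 1 to 5 lower. Of 11 core and primed genes 5 were higher and 1 lower, with 2 to 7 and 0 to 2 when 1 cell was left out.

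**Figure D2:**
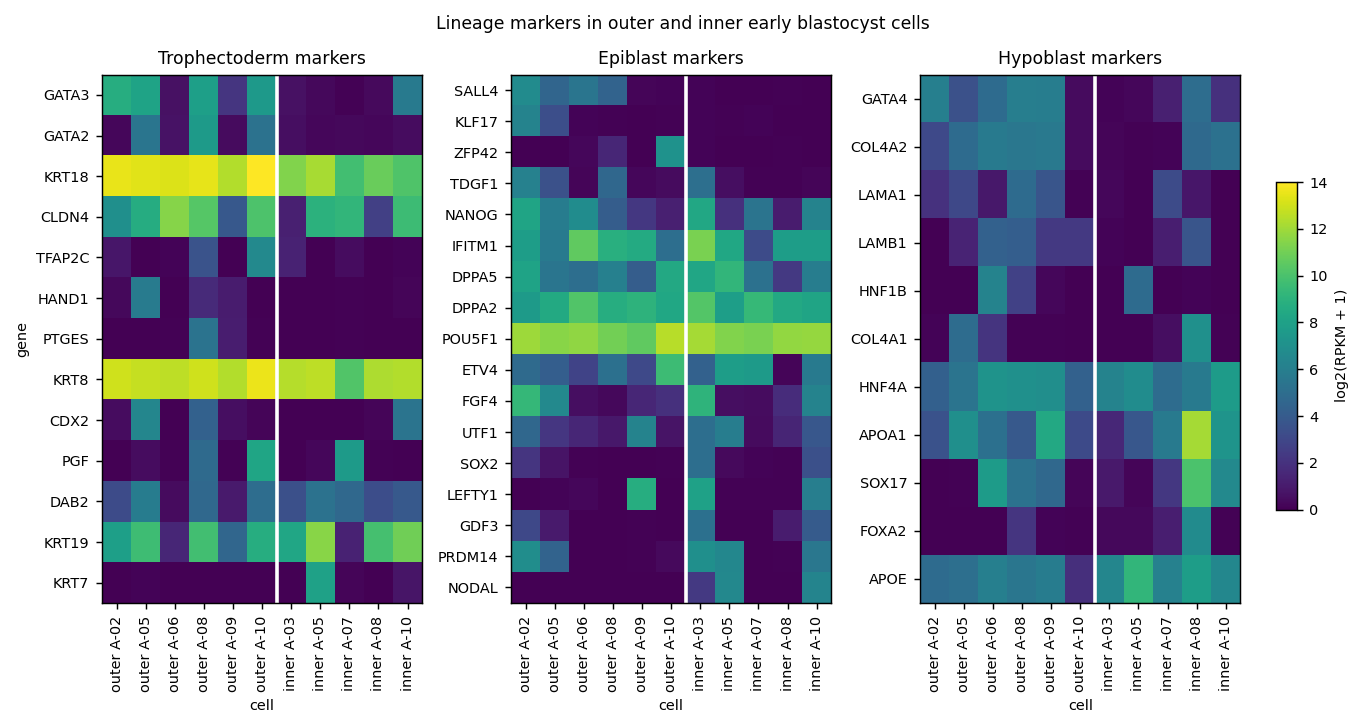
Colour gives log2(RPKM + 1) of the measured trophectoderm, epiblast and hypoblast markers reported here (rows, sorted by difference) in each of the 11 cells (columns), with outer cells to the left of the white line and inner cells to the right. KRT18 is high in the 6 outer cells, GATA3 in 4 of them, and SOX17 and APOA1 are highest in inner A-08.

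Hypoblast genes were found on both sides, and the transcription factor GATA4 stood higher in outer cells. GATA4, which drives primitive endoderm in the mouse, ran from 0.314 to 65.4 RPKM with a median of 43.9 in outer cells and was 0.0817, 0.188, 1.32, 30.9 and 2.82 RPKM in inner cells. Outer A-02, A-08 and A-09, at 65.4, 63.1 and 59.4 RPKM, were above every inner cell, while outer A-10 lay below 3 of them. The difference was 2.75, and 2.95 without outer A-05. SOX17, an endoderm factor, reached 1051 RPKM in inner A-08 and 96.7 in inner A-10, and 204, 37.5 and 25.1 RPKM in outer A-06, A-08 and A-09. Its difference of -1.03 was 0.48 without inner A-08 and -0.44 without outer A-05, so no direction was stable. FOXA2, another endoderm factor, rested on inner A-08 at 107 RPKM, and its difference of -1.31 was -0.05 without that cell.

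Of the basement membrane chains named here, COL4A2, LAMA1 and LAMB1 stood higher in outer cells and COL4A1 was not called. COL4A2, a chain of type IV collagen, ran from 0.354 to 50.8 RPKM with a median of 37.5 in outer cells and was 0.135, 0.0724, 0.117, 26.6 and 37 RPKM in inner cells, a difference of 2.13 and 2.00 without outer A-05. LAMA1, a laminin chain, differed by 1.57 with its highest value, 29.2 RPKM, in outer A-08, and LAMB1, its partner chain, by 1.42 with 19.4 RPKM in outer A-06. COL4A1, the companion of COL4A2, was 129 RPKM in inner A-08 and 29.4 in outer A-05, with a difference of -0.30 that was -1.04 without outer A-05 and 1.07 without inner A-08. With the inner cells of letters G and H added, LAMB1 differed by -0.026 and was not called. Against those cells alone it was lower in outer cells, at -1.47.

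APOE stood lower in outer cells, and APOA1 was not called. APOE, a lipid carrier, ran from 2.69 to 65.1 RPKM with a median of 39 in outer cells and was 85.1, 592, 70.5, 220.4 and 88.2 RPKM in inner cells. Every inner cell was above every outer cell, by a small margin between inner A-07 and outer A-06, and the difference was -2.33, or -2.38 without outer A-05. APOA1, the main protein of high-density lipoprotein, was 4388 RPKM in inner A-08 against 1.91 to 148 in the other inner cells and 7.87 to 349 RPKM with a median of 24.3 in outer cells, a difference of -0.89, under the threshold. It was -1.25 without outer A-05 and 0.61 without inner A-08. HNF4A, a regulator of such genes, was present in every cell at 18.5 to 143 RPKM with a median of 80.6 in outer and 74.8, 111, 30.1, 54.6 and 201 RPKM in inner cells, a difference of -0.44. Over the list, 4 of 11 measured markers were higher and 3 lower, against 26.2% and 28.2% of all measured genes. The median of these markers, -0.30, moved between -0.56 and 0.84 when 1 cell was left out. PDGFRA, a receptor of the hypoblast, was at 0 in all 11 cells.

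Set side by side, markers of more than 1 of the 3 lists reached 5 RPKM in cells of both groups. Whether such a cell was itself mixed, or its library held RNA of other cells, was not tested. Inner A-08 reached 5 RPKM for 9 of 20 hypoblast markers, 3 of 20 epiblast markers and 5 of 20 trophectoderm markers. Inner A-03, the shallowest cell, reached it for 14 epiblast and 3 hypoblast markers, and inner A-10 for 13 and 5. Among outer cells, A-02 reached it for 13 epiblast markers beside its 418 RPKM of GATA3. Outer A-06 reached it for 10 hypoblast and 3 trophectoderm markers, and outer A-10 for 10 trophectoderm and 2 hypoblast markers. Outer A-08, the cell with the most genes at 1 RPKM, reached it for 12 trophectoderm, 8 epiblast and 9 hypoblast markers. Markers of other tissues were nearly absent. Of 15 cumulus cell markers 12 were at 0 in all 11 cells, FSHR and CYP19A1 among them, and their summed level was at most 2.18 RPKM in an outer and 7.93 in an inner cell. Of 14 fibroblast markers 12 were at 0, COL1A1 among them, with sums of 0 to 50.5 RPKM in outer and 0 to 0.156 in inner cells. Of 13 blood markers 10 were at 0, HBB among them, with sums of 0 to 302 RPKM in outer and 0.102 to 274 in inner cells. The high sums came from TWIST1 in outer A-09 and from TYROBP in outer A-02 and inner A-03. Their part in the results was not tested.

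The Hippo pathway, which links position to trophectoderm genes in the mouse, had 5 of 10 measured members higher and 1 lower in outer cells, against 26.2% and 28.2% of all measured genes. Without outer A-05 the counts were 3 and 1, and the median of 0.83 was 0.55. Leaving out any 1 cell gave between 2 and 6 higher members and a median between -0.60, without outer A-08, and 1.13, without outer A-10. With the inner cells of letters G and H added, 2 of 13 were higher and 5 lower. Beside TEAD4, the members of largest difference were present in few cells. LATS2, a kinase that inactivates YAP1, was at 32.9 RPKM in outer A-02. Outer A-05 held 5.47 RPKM, near the share of the outer A-02 value noted for this pair. The LATS2 difference of 1.31 was 0.56 without outer A-02 and 1.04 without outer A-05. STK4, the kinase upstream of LATS2, was at 19.7 and 12.1 RPKM in outer A-09 and A-08, with a difference of 1.17 that was 0.60 without outer A-09. NF2, a scaffold that activates the kinases, stood at 29.1 and 21.2 RPKM in inner A-05 and A-10 and at no more than 3.85 in the other 9 cells, a difference of -1.14, which was -0.46 without inner A-05.

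Polarity and junction genes had calls in both directions, as all measured genes did. Of 12 measured apical polarity genes 4 were higher and 4 lower, and of 6 basolateral genes 2 were higher and 0 lower. The shares over all measured genes were 26.2% and 28.2%. MYH9, the heavy chain of non-muscle myosin, was even among outer cells at 84.7 to 145 RPKM with a median of 109, against 9.77, 94.2, 8.54, 261 and 51.3 RPKM in inner cells. The inner cells thus lay below, within and above the outer range, and the difference of 1.38 was 0.85 without inner A-07. The tight junction proteins CLDN3, CLDN6 and CLDN4 stood higher in outer cells. CLDN3 ran from 3.33 to 1696 RPKM with a median of 128 in outer cells and was 0.242, 7.81, 11.3, 0.156 and 9.52 RPKM in inner cells, a difference of 4.16, or 3.52 without outer A-05. Outer A-10, A-05 and A-08 were far above every inner cell, and outer A-02 and A-09 lay among them. CLDN6 ran from 183 to 1672 RPKM with a median of 401 in outer cells and was 374, 13.4, 3.61, 216 and 113 RPKM in inner cells, a difference of 2.98 and 3.03 without outer A-05. CLDN4 ran from 13.4 to 2759 RPKM with a median of 755 in outer cells and was 1.39, 511, 587, 5.41 and 781 RPKM in inner cells, where A-03 and A-08 held little of it. Its difference of 2.21 was 0.94 without inner A-03.

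F11R and EPCAM had the opposite sign. F11R, a junctional adhesion molecule, ran from 0.247 to 52.7 RPKM with a median of 2.66 in outer cells and was 5.6, 13.5, 56.7, 81.9 and 23 RPKM in inner cells, a difference of -2.39 and -2.25 without outer A-05. EPCAM, an epithelial adhesion molecule, was 216, 347, 175, 343 and 269.6 RPKM in inner cells and 6.5 to 282 RPKM with a median of 164 in outer cells. Its difference of -1.38 was -0.63 without outer A-10. Of 8 measured tight junction genes 3 were higher and 3 lower, and of 12 genes of adherens junctions and desmosomes 1 was higher and 3 lower. The shares over all measured genes were 26.2% and 28.2%.

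Among genes of ion and water transport, which fills the cavity, 3 of 13 measured were higher and 3 lower. Both shares were near the 26.2% and 28.2% of all measured genes. CLIC1, a chloride channel protein, ran from 368 to 885 RPKM with a median of 543 in outer cells and was 561, 133, 226, 27.4 and 435 RPKM in inner cells. Its difference of 1.66 was 0.98 without inner A-08.

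Genes of endocytosis and the lysosome had as high a share of higher members as the trophectoderm markers. Of 21 measured 12 were higher and 3 lower, and the list's median was 1.50 log2 units, beside 26.2% and 28.2% over all measured genes. Without outer A-05 the counts were 11 and 2, with a median of 1.18, and over all 11 cells left out in turn the count of higher genes ran from 9 to 13. The median was 0.79 without inner A-03, and 0.57, with 8 higher and 5 lower, without the shallowest outer and inner cell. With the inner cells of letters G and H added it was 0.30, with 8 of 23 higher and 5 lower. CTSB, a lysosomal protease, ran from 11 to 783 RPKM with a median of 206 in outer cells and was 46.7, 0.178, 163, 407 and 0.568 RPKM in inner cells, where A-05 and A-10 held almost none. Its difference was 2.79, and 1.73 without inner A-05. CD63, a membrane protein of late endosomes, ran from 115 to 916 RPKM with a median of 305 in outer cells and was 155, 0.505, 5.82, 664 and 406 RPKM in inner cells. Its difference of 2.51 was 1.23 without inner A-05. RAB7A, the small GTPase of late endosomes, differed by 2.44 and by 1.86 without outer A-05, with 321 and 253 RPKM in outer A-02 and A-05. CTSE, an aspartic protease, was at 186 RPKM in outer A-02. Outer A-05 held 29.6 RPKM, near the share of the outer A-02 value noted for this pair. The CTSE difference of 2.53 was 1.53 without outer A-02 and 2.06 without outer A-05. CTSB and CD63 were thus found in all 6 outer cells at more than 10 RPKM, and RAB7A and CTSE were not.

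**Figure D3:**
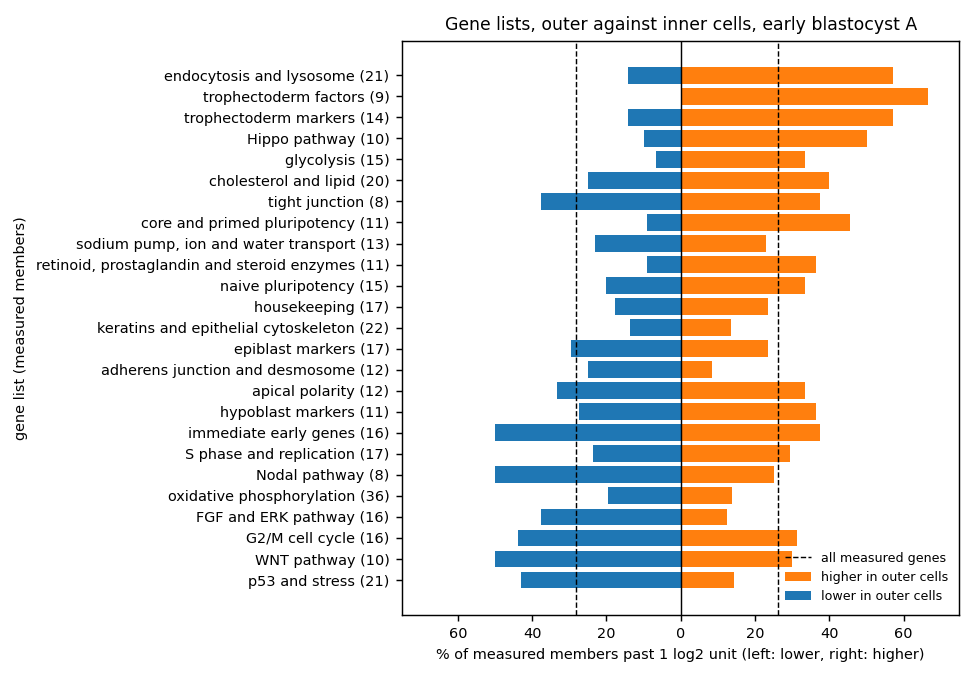
Bars give the share (%) of each list's measured members (number in brackets) that stood at least 1 log2 unit higher (to the right) or lower (to the left) in outer cells, and the dashed lines give the shares over all 5350 measured genes, 26.2% and 28.2%. The trophectoderm factors, trophectoderm markers and endocytosis genes reach furthest to the right, and the Nodal, WNT and immediate early genes reach 50% on the left.

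Of 15 measured genes of sugar uptake and glycolysis 5 were higher, a share near the 26.2% of all measured genes, and 1 was lower, against 28.2%. HK1, the hexokinase that traps glucose, ran from 16.8 to 185 RPKM with a median of 87.8 in outer cells and was 24.6, 0.198, 0.158, 0.589 and 21.4 RPKM in inner cells. Outer A-09 lay below inner A-03 and A-10, the other 5 outer cells above every inner cell, and the difference was 4.25, or 4.12 without outer A-05. SLC2A1, the main glucose transporter, ran from 351 to 1637 RPKM with a median of 824 in outer cells and was 352, 225, 0.884, 235 and 288 RPKM in inner cells. The groups touched at outer A-10 and inner A-03, and the difference of 2.94 was 1.50 without inner A-07. TPI1, a mid-pathway enzyme, had the other sign at -2.10 and varied between 0.128 and 572 RPKM over the 11 cells, with -1.32 without inner A-03. Of 36 measured oxidative phosphorylation genes 5 were higher and 7 lower, fewer than the share of all measured genes. SDHB, the iron-sulfur subunit of succinate dehydrogenase, was 544, 92.2, 583, 718 and 184 RPKM in inner cells and 2.31 to 301 RPKM with a median of 71.7 in outer cells, a difference of -2.74 and -3.19 without outer A-05. SDHA, the catalytic subunit of the same enzyme, had the other sign at 2.66 (2.22 without outer A-05), which was 1.74 without outer A-06. IDI1, an enzyme of cholesterol synthesis, was 83.1, 0.572, 18.9, 29.7 and 4.41 RPKM in inner cells and at most 1.27 RPKM in an outer cell, a difference of -3.54. The cholesterol and lipid list as a whole had 8 of 20 higher and 5 lower, against 26.2% and 28.2% of all measured genes.

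Genes of the p53 and stress response were more often lower than higher in outer cells, with 9 of 21 measured lower and 3 higher, against 28.2% and 26.2% of all measured genes, and a median of -0.77. Of the 21 genes 7 were measured by their inner mean alone and 2 by their outer mean alone, which by construction favours lower calls. Over all 5350 measured genes these counts were 1166 and 1060. Without outer A-05 the counts were 11 and 4, and with any 1 cell left out 7 to 12 were lower. The median was -0.41 without inner A-07 and -0.42 without outer A-10. GDF15, a stress cytokine, was 73.9, 0.489, 8.38, 1.16 and 22.8 RPKM in inner cells and at most 0.27 RPKM in an outer cell, a difference of -3.08. The groups did not overlap, but inner A-05 and A-08 held little of it. PHLDA3, a p53 target, rested on inner A-07 at 694 RPKM, with a difference of -2.83 that was -1.21 without it. BAX, which opens mitochondria in apoptosis, was 0.375, 95, 53.5, 0 and 4.22 RPKM in inner cells and at most 0.563 RPKM in an outer cell, a difference of -2.89. Inner A-03 and A-08 lay within the outer range. HSPA1A, an inducible heat shock protein with a near-identical paralog, had the other sign at 4.04 (3.80 without outer A-05), with 0.105 to 350.3 RPKM with a median of 35.1 in outer cells and 0.114, 0.0527, 0, 0.0246 and 4.92 RPKM in inner cells.

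Cell cycle genes differed gene by gene. Of 16 measured G2/M genes 5 were higher and 7 lower, against 26.2% and 28.2% of all measured genes. Without outer A-05 2 of 15 were higher and 7 lower. Of 17 replication genes 5 were higher and 4 lower, near the 26.2% and 28.2% of all measured genes. AURKB, a mitotic kinase, ran from 51.1 to 589 RPKM with a median of 276 in outer cells and was 0.923, 5.74, 151, 0.794 and 126 RPKM in inner cells, a difference of 3.95 and 4.17 without outer A-05. CENPA, the centromeric histone, had the opposite sign at -2.28, with 0.0286 to 50.4 RPKM with a median of 0.939 in outer cells and 122, 7.26, 64.5, 1.55 and 45.1 RPKM in inner cells. GINS2, part of the replicative helicase, ran from 1.02 to 418 RPKM with a median of 315 in outer cells and was 2.89, 0.166, 0.139, 1.24 and 343 RPKM in inner cells. It was thus high in 5 outer cells and 1 inner cell, with a difference of 4.54. TYMS, which makes thymidylate for DNA synthesis, ran from 34.3 to 121 RPKM with a median of 92.2 in outer cells and was 189, 350.0, 433, 448 and 215 RPKM in inner cells. Every inner cell was above every outer cell, and the difference was -2.05, or -1.84 without outer A-05.

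Complete separation of the groups was rare across all genes. Among the 5350 measured genes 37 (0.692%) had every outer cell above every inner cell, and 29 (0.542%) the reverse. Many of these owed their separation to cells at trace level, as PSKH1, a protein kinase, whose outer cells ran from 1.06 to 301 RPKM with a median of 77.8 while inner cells held 0.582, 0.0383, 0.12, 0.0358 and 0.202 RPKM. When every cell of the higher group also had to reach 5 RPKM, a limit chosen after seeing the data, 9 genes (0.168%) remained higher and 8 (0.15%) lower in outer cells. The largest difference among the 9 was that of RTFDC1, a homolog of a yeast replication termination factor. Its outer cells ran from 30.5 to 149 RPKM with a median of 66, and its inner cells held 2.67, 0.206, 0, 0.0959 and 1.9 RPKM, a difference of 5.38.

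The 8 other genes of this group had varied known roles. TOR1A, an ATPase of the endoplasmic reticulum, ran from 9.61 to 157 RPKM with a median of 59.5 in outer cells and was 0.268, 0.124, 7.3, 0.0289 and 0 RPKM in inner cells, a difference of 4.73. REEP6, a membrane protein of the same compartment, ran from 130.4 to 498 RPKM with a median of 282 in outer cells and was 6.61, 32.5, 0.239, 37.1 and 49 RPKM in inner cells, a difference of 4.14. TXN2, the mitochondrial thioredoxin, ran from 80.8 to 367 RPKM with a median of 241 in outer cells and was 31.3, 12.4, 24.7, 1.82 and 7.77 RPKM in inner cells, a difference of 4.08. The lowest outer cell lay close to the highest inner cell in TOR1A, and further from it in REEP6 and TXN2. VPS28, a subunit of the ESCRT-I complex that sorts membrane proteins in endosomes, was even among outer cells at 758 to 1143 RPKM with a median of 938, and inner cells held 221, 83.9, 631, 9.76 and 635 RPKM. Its difference of 2.60 was 1.65 without inner A-08, its lowest cell. ARFGAP1, a regulator of Golgi traffic, differed by 3.30, NAGK, a kinase that recycles N-acetylglucosamine, by 3.61 and CCDC120, a coiled-coil protein, by 4.54. The ninth gene was KRT18.

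Of the 8 genes lower in outer cells, PNPLA6, a phospholipase, had the largest difference at -4.90. Its outer cells ran from 0.0747 to 3.04 RPKM with a median of 0.382, and its inner cells held 161, 47.3, 9.06, 137 and 18.3 RPKM. HP1BP3, a chromatin protein that binds heterochromatin protein 1, ran from 0 to 11.2 RPKM with a median of 1.93 in outer cells and was 114, 31.5, 32.9, 56.6 and 96.3 RPKM in inner cells, a difference of -4.36. GET4, part of the route that inserts tail-anchored proteins into membranes, ran from 0.279 to 13.2 RPKM with a median of 7.28 in outer cells and was 61.8, 158, 153, 281 and 46.4 RPKM in inner cells, a difference of -4.19. In HP1BP3 and GET4 the lowest inner cell stood at least 2 times above the highest outer cell. BLOC1S1, a subunit of a complex for lysosome-related organelles, differed by -3.91, but its highest outer cell at 60.5 RPKM came close to its lowest inner cell at 64. USP28, a deubiquitinase, ran from 6.09 to 13.2 RPKM with a median of 7.44 in outer cells and was 38.9, 63.4, 20.9, 31.8 and 52.9 RPKM in inner cells, a difference of -2.14. ATG3, an enzyme of autophagy, ran from 139 to 655 RPKM with a median of 479 in outer cells and was 1448, 833, 1491, 699.8 and 984 RPKM in inner cells, a difference of -1.37. The remaining genes were APOE and TYMS. These 17 genes were chosen for complete separation, so leaving out outer A-05 could not change their direction. Each call also remained without that cell, which such a choice makes likely.

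**Figure D4:**
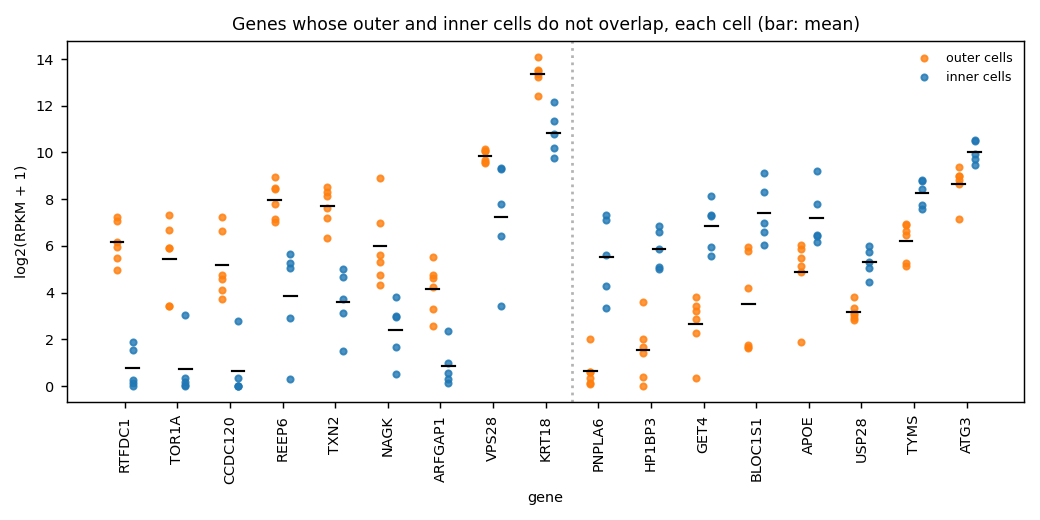
Each point is 1 cell, with log2(RPKM + 1) on the y axis, for the 17 genes (x axis) whose outer (orange) and inner (blue) cells do not overlap and whose higher group reaches 5 RPKM in every cell, with bars for the group means. KRT18 and VPS28 lie high on the scale, and ATG3 shows the smallest difference, -1.37 log2 units.

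Taken over all pairs, inner cells were no more alike to each other than to outer cells. The correlation of log2 values between cells, over the 5350 measured genes and as a description, had a median of 0.54 among the 15 outer pairs, 0.48 among the 10 inner pairs and 0.49 among the 30 outer-inner pairs, where all pairs share the library protocol. The outer pairs include A-02 with A-05, at 0.73, the highest of all. Inner A-07 had low values, 0.42 to 0.48 with the other inner cells and 0.42 to 0.48 with outer cells. Without inner A-07, inner pairs ran from 0.46 to 0.56 and outer-inner pairs from 0.46 to 0.60. The medians without that cell were not taken, so their order may rest on it. The genes of largest spread were high in some cells and near 0 in others of the same position. TMEM42, a membrane protein, ran from 0.0541 to 1542 RPKM with a median of 1.08 in outer cells and was 0.283, 571, 216, 485 and 0 RPKM in inner cells, and was among the 5 most variable genes in both positions. GMPPB, an enzyme of mannose activation, and FUOM, an enzyme of fucose metabolism, were at 833 and 796 RPKM in outer A-09 and at 0.0729 and 0.0792 in outer A-02. RAB20, a small GTPase, was at 892 RPKM in inner A-08 and 113 in inner A-05, and at most 0.323 in the other 3 inner cells. STOML2, a mitochondrial membrane protein, was 1404, 14.7, 492, 0.427 and 0.439 RPKM in inner cells and 183 to 929 RPKM with a median of 545 in outer cells. The genes named here for their spread were not on the lineage lists. Lineage markers such as KRT19 and APOA1 also varied widely among inner cells, and the spread of the lists was not compared.

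The inner cells of letters G and H, set beside the others as values, differed from the inner cells of letter A in several of the genes named above. KRT18 averaged 336 RPKM over these 5 cells (range 9.69 to 901 RPKM) and KRT8 285 (8.15 to 759 RPKM), against 2193 RPKM (SD 1475) and 4677 RPKM (SD 2024) in the inner cells of letter A. NODAL was at most 0.188 RPKM there, and GATA4 at most 0.18 RPKM. EPCAM ran from 480.2 to 706 RPKM. Of the 9 genes higher in outer cells, 3 were also above every inner cell of G and H, namely KRT18, VPS28 and CCDC120, and of the 8 lower genes 0 were below every one of them. Against the cells of G and H alone, TYMS and USP28 had the opposite sign, at 0.56 and 0.15 log2 units, and were not called. Letter and position cannot be told apart in any comparison of the outer cells with these inner cells.

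At the middle blastocyst, at about day 5.5, the 5 outer and 4 inner cells of letter B gave a separate comparison with no cell in common. There 1171 of 4904 measured genes (23.9%) were higher and 1703 (34.7%) lower in outer cells, with a median of -0.22. Of the 1403 genes higher at the early blastocyst, 1074 were measured at the middle blastocyst, where 261 (24.3%) were higher and 355 (33.1%) lower, against 20.7% and 35.4% of the 3900 genes measured at both stages. Of the 1508 lower genes 964 were measured, where 401 (41.6%) were lower and 193 (20.0%) higher. The 261 genes made up 22.3% of the middle blastocyst's higher list and the 401 genes 23.5% of its lower list. The shares with the same call, 24.3% and 41.6%, were thus a few points above the 20.7% and 35.4% of all genes measured at both stages.

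Trophectoderm genes kept their direction in part. At the middle blastocyst 9 of 15 measured trophectoderm markers were higher and 1 lower, and the median was 1.42. Over all genes measured at that stage 23.9% were higher and 34.7% lower. GATA3 differed by 1.98, GATA2 by 2.73 and PTGES by 2.51 log2 units. KRT18 did not, at -0.78, with 12336 RPKM (SD 10904) in outer and 11688 (SD 4986) in inner cells of letter B. Neither did CLDN6, at 0.04. Of the 8 measured genes among the 9 with complete separation, 0 were higher at the middle blastocyst, and VPS28 was lower at -2.33. Of the 8 lower genes 5 were lower there as well, PNPLA6 at -2.10, BLOC1S1 at -1.19, USP28 at -2.17, TYMS at -2.73 and ATG3 at -1.09, and APOE was higher at 1.12.

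Epiblast markers were split by position at the middle blastocyst to a degree not present at the early one. Of 16 measured markers 12 were lower and 1 higher in outer cells, with a median of -3.31, against 5 lower and 4 higher of 17 and a median of -0.11 at the early blastocyst. Over all genes measured at the middle blastocyst 34.7% were lower and 23.9% higher. NODAL differed by -4.40 at the middle blastocyst and by -3.03 at the early blastocyst, PRDM14 by -4.50 and -1.85, and FGF4 by -4.95 and -0.27. Hypoblast markers were higher in outer cells at the middle blastocyst for 9 of 12 and lower for 1, with a median of 1.19, and GATA4 differed by 1.83. The lysosomal genes CTSB and CD63 also kept their direction, at 4.28 and 2.12, and 10 of 22 genes of that list were higher and 3 lower. The change between the stages was not tested, and the letters A and B cannot be told apart from the stages here.

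**Figure D5:**
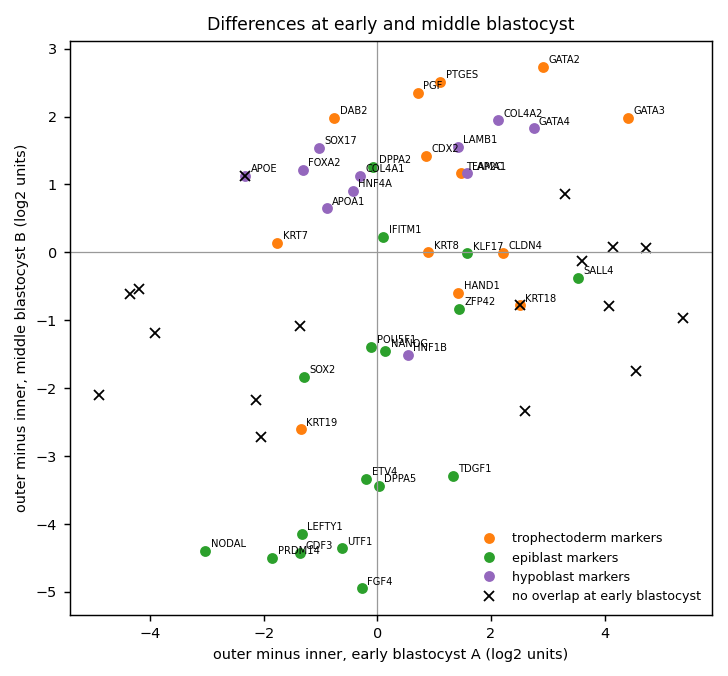
Each point is a gene, with its difference between outer and inner cells in log2 units at the early blastocyst (letter A, x axis) and at the middle blastocyst (letter B, y axis), for the measured lineage markers reported here (colours) and the genes with complete separation at the early blastocyst (crosses). NODAL and PRDM14 lie low on the left, GATA3 and GATA2 high on the right, and KRT18 on the right below 0.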

How the data were processed

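RNA of single cells was tailed, amplified by PCR and read as 100-base single-end reads, per the labels' protocols. The protocols mention no molecular identifiers or cell barcodes, and no doublets were called. The authors' deposited table gives 1 value per gene symbol and cell and names no unit. The values were read as RPKM made by the authors, since the low values of each gene fall on even steps. FastQC, TopHat2 2.1.0, HTSeq and DESeq2 are named with no role, per the submitters' processing notes. The genome build, annotation, strand setting and filters are not given in the sources used here, and coordinates are left out. Each value column carries the title of 1 sample, with 0 columns unmatched.

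Values were turned into log2(RPKM + 1) and averaged per group with Python 3.11.15, pandas 2.3.3 and numpy 2.4.6. Genes with a mean of 5 RPKM in either group were taken as measured, and a difference of 1 log2 unit as a call. Differences on this scale understate the change of low genes. Because the labels name no animal, embryo or culture, no test was run. Depth was read back as whole reads within a tolerance of 0.05 for 11850 genes (73.8%), and is a rough measure. PCR reads are not independent molecules, so precision beyond the spread of cells is unknown. Genes named are the 15 of largest difference each way without overlap, up to 4 per list described, any measured lineage marker, and the 5 of largest spread per group, with part of them given. ATG3, USP28, VPS28, TYMS and ARFGAP1 come from the added limit of 5 RPKM in every cell of the higher group, and other genes outside the rule (such as those at 0) were named after their values were seen. Values of 2 list members are not reported here, though the counts of their lists include them. The members and lists were chosen with earlier results of these data known. Alternatives changed the pseudocount, the filter, the scaling, the inner cells and the cells used.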

Additional observations from a re-analysis of the deposited data

Results flagged for a closer look

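In 160 groups of 5 or 6 cells tested on the log2(RPKM + 1) scale, for genes named above with at least 1 cell at 5 RPKM, 28 had a lowest or highest cell set far from the rest. Chance flags about 1 in 20 such groups, and groups with no cell at 5 RPKM were not tested. Genes that are on in 1 cell give this pattern by themselves.

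Among outer cells, A-10 stood low for APOE (2.69 RPKM), ATG3 (139 RPKM), EPCAM (6.50 RPKM) and GINS2 (1.02 RPKM). Outer A-08 stood high for PTGES (39.0 RPKM) and RAB20 (44.9 RPKM). Outer A-09 stood high for LEFTY1 (417 RPKM) and TWIST1 (50.5 RPKM), and outer A-05 for HAND1 (56.2 RPKM). Outer A-02 stood high for GDF3 (7.22 RPKM) and low for TBX3 (1.34 RPKM).

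Among inner cells, A-07 stood low for KRT8 (1157 RPKM) and SLC2A1 (0.884 RPKM), and high for KLF6 (55.6 RPKM), LAMA1 (8.18 RPKM), PGF (194 RPKM) and TOR1A (7.30 RPKM). Inner A-10 stood high for the trophectoderm factors GATA3 (53.6 RPKM) and CDX2 (41.5 RPKM), and for GINS2 (343 RPKM) and S100A16 (20.7 RPKM). Inner A-08 stood high for COL4A1 (129 RPKM) and FOXA2 (107 RPKM), and inner A-05 for KRT7 (255 RPKM) and CCDC120 (5.81 RPKM). Inner A-03 stood high for FUOM (391 RPKM), TDGF1 (33.9 RPKM) and TYROBP (274 RPKM).

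VPS28, with every outer cell above every inner cell at the early blastocyst, had every outer cell below every inner cell of letter B at the middle blastocyst, by -2.33 log2 units. This difference between the stages was not tested.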

How the results depend on the processing

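No paired analysis was possible because the values come from no test and the numbers in the titles only name cells. With a pseudocount of 5 the 1403 higher, 1508 lower and 662 genes with the same call at the middle blastocyst became 806, 816 and 315. A minimum mean of 20 RPKM gave 978 lower genes, 19 lower without overlap in place of 29, and 394 with the same call. Inner cells of A, G and H together left 5 and 2 genes without overlap in place of 37 and 29, and 4 and 0 in place of 9 and 8 with the 5 RPKM limit. Inner cells of G and H alone gave 3216 lower genes, 112 and 420 without overlap, and 81 and 288 with the limit. The share of higher among called genes, 48.2%, was 33.3% and 27.4% with these inner cells, and the median of all measured genes moved to -0.51 and -1.03. Leaving out the shallowest outer and inner cell gave 106 and 137 without overlap and 19 and 40 with the limit. Leaving out outer A-02 and A-05, chosen after seeing the data, gave 68, 55, 20 and 21. The cause of these shifts was not tested. Fewer cells make complete separation easier and more cells make it harder by construction. The comparison with the inner cells of G and H alone had 5 inner cells, the same number as the main one.

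With each cell left out in turn, higher genes ran from 1315 to 1625, lower from 1401 to 1788, and same calls from 646 to 705. Genes without overlap ran from 35 to 82 and from 32 to 83, and with the limit from 10 to 19 and from 8 to 27. The median of the trophectoderm markers ran from 1.05 to 1.49. That of the epiblast markers ran from -0.75 to 0.53, and that of the hypoblast markers from -0.56 to 0.84.

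Among the genes named, 92 in all, the following that had been called changed sign. The ratio of group means gave GMPPB 0.33, LEFTY1 0.10 and TMEM42 0.17. Inner cells of A, G and H gave KRT19 2.04, LAMB1 -0.026, LEFTY1 0.043, RAB7A -0.071, SOX17 0.60 and TFAP2C -0.024. Inner cells of G and H alone gave CLDN4 -0.086, FOXA2 0.36, GINS2 -0.30, KLF6 -1.48, KRT19 5.44, KRT7 0.029, LAMB1 -1.47, LEFTY1 1.42 and NF2 0.22. They also gave PRDM14 0.70, RAB20 1.19, RAB7A -2.58, SDHA -1.14, SOX17 2.23, TFAP2C -1.51, TYMS 0.56 and USP28 0.15. The shallowest pair left out gave LEFTY1 0.26, outer A-02 and A-05 left out gave GMPPB 0.49 and SOX17 0.44, and with 1 cell left out at a time SOX17 ran from -1.98 to 0.48, its upper end without inner A-08. Scaling by the same total or by size factors reversed 0 of the called genes. Genes below the threshold, such as FGF4, COL4A1 and PGF, could also change sign with 1 cell left out.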
